A study of Mus musculus with 31 samples.

Results

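In the hippocampus of mice that carry a single intact copy of Kmt2d, 1040 regions held a lower deposited H3K4me3 score than in wild types, with vehicle and again after 2 weeks of the LSD1 inhibitor TAK-418. They are rows of the authors' list of vehicle heterozygotes against vehicle wild types in which the heterozygote mean was lower. Each also overlaps a lower row of the list of treated heterozygotes against vehicle wild types, and none overlaps a row of the list of treated against vehicle heterozygotes. They make up 60.2% of the 1727 lower rows on the autosomes and X, in a list of 2015 rows. Members were thus chosen by the H3K4me3 scores of vehicle heterozygotes, treated heterozygotes and vehicle wild types, and these are given below as a description without a test. The third list gives no row at these regions, which does not show that TAK-418 left them unchanged.

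Chromatin was immunoprecipitated with antibodies against lysine 4 of histone H3 in its trimethylated (H3K4me3) or its monomethylated form (H3K4me1), and sequenced. All 16 mice were of strain C57BL6 and 30 days old. Heterozygotes (KMT2D+/bGeo) carried 1 copy of Kmt2d with a βGeo insertion and wild types carried 2 intact copies. From 2 weeks of age, and for 2 weeks, treated mice received TAK-418 in methylcellulose by gavage (1 mg/kg/day), and vehicle mice of both genotypes received methylcellulose. The groups were heterozygote TAK-418, heterozygote vehicle, wild type TAK-418 and wild type vehicle, with 4 H3K4me3 and 4 H3K4me1 libraries each, except 3 H3K4me1 libraries for wild type TAK-418. Litter and sex are not given in the sources used here.

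H3K4me3 is laid down around the start of transcribed genes, mostly within CpG islands, by methyltransferases of the SET1 and MLL families. KMT2D, also called MLL4, belongs to that family and is best known for H3K4me1 at enhancers, and loss of 1 copy causes Kabuki syndrome in people. LSD1, encoded by Kdm1a, removes mono- and dimethyl groups from the same lysine and works with the CoREST scaffold, encoded by Rcor1.

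Most of these regions lay just inside the start of a gene. By the RefSeq annotation, 818 of the 1040 members (78.7%) were within 2 kb of a protein-coding gene start. Another 166 were within 2 kb of either outer limit, start or far end, of a gene for which the promoter table used here gives no start. The other 56 (5.38%) were away from both. The centre of the 818 lay a median of 318 bp downstream of the start, with quartiles of 203 and 428 bp, and was downstream in 91.0% of them. The start itself was covered in 26.9%. Members were 250 to 1900 bp long with a median of 500 bp. Another 569 lower rows of the first list overlap no lower row of the treated list, which gives only rows with a −log10 p of at least 1.3, so they may still have been lower in treated heterozygotes. Their median length was 350 bp, and 46.0% were at a gene start. Closer to the members in this share were the lower rows kept out only by a row of the third list. Of the 76 that were higher with TAK-418, 75% were at a gene start, and of the 42 lower ones 71.4%. Their median lengths were 650 and 575 bp. Over all lower rows at a gene start, members included, the centre lay a median of 320 bp downstream and was downstream in 90.4%. The downstream position is thus not particular to members. Only 3 members were on X, and 11 members (1.06%) were recurrent regions, where at least 8 libraries of each mark had a peak.

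The sequences around these starts held more CpG, by the median, than starts with a peak or all starts, but were close to those of the other lower rows. The 5 windows shown hold 15 to 42 CpG. The windows below, from RefSeq (GRCm38.p6, the assembly also known as mm10), run from 250 bases before to 50 bases after the start, on the strand of the gene. They belong to the 5 members with the highest −log10 p of the authors in the first list, among those at gene starts in the promoter table and outside recurrent regions. At each of the 5 the member begins downstream of the window. Capitals mark each match to GGGCGG (the GC box, or CCGCCC on the other strand), to CCAAT (or ATTGG) and to TATAAA (or TTTATA).
Ddx3x, chrX:13280772-13281071, plus strand: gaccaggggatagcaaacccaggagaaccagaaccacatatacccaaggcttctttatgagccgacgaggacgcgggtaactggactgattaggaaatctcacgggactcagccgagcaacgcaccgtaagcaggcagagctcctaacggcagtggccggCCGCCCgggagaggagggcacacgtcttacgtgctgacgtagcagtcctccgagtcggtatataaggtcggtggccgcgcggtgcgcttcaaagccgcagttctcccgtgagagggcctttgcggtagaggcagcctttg
Tnrc18, chr5:142817613-142817912, minus strand: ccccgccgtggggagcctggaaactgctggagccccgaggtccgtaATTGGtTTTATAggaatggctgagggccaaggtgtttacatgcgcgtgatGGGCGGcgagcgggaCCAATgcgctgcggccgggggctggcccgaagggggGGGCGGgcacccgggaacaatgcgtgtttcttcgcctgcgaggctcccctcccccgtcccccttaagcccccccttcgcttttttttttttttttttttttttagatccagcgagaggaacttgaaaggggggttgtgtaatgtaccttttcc
Foxo3, chr10:42276646-42276945, minus strand: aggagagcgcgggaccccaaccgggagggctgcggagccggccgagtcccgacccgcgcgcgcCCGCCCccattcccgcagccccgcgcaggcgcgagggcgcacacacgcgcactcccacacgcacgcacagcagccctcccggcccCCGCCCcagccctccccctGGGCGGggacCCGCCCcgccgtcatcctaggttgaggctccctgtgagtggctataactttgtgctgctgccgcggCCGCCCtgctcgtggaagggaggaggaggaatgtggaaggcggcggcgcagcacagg
Tpm3, chr3:90079271-90079570, plus strand: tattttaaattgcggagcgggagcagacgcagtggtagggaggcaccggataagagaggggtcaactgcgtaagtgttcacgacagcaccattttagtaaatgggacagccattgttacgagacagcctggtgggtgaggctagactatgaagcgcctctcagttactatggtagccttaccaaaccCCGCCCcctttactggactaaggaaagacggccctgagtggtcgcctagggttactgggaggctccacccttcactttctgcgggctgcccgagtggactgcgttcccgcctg
Prkca, chr11:108343839-108344138, minus strand: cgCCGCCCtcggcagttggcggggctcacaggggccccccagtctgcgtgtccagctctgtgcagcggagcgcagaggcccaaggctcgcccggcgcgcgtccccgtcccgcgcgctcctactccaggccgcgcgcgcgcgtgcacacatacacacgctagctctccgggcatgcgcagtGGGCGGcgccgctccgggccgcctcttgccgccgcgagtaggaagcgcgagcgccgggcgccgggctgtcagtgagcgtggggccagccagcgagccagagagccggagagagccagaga

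These 5 windows hold 1, 2, 5, 1 and 2 GC boxes in the order shown, and 25, 21, 35, 15 and 42 CpG. G and C make up 60.0%, 59.3%, 75%, 55.7% and 75.3% of their bases. The Tnrc18 window also holds 2 matches to CCAAT and 1 to TATAAA, by either strand. Over the 812 distinct windows of members the median was 66.7% G and C and 28 CpG, with an observed to expected CpG ratio of 0.873. The 10935 windows at gene starts with a peak in all 4 of the long H3K4me3 peak lists described below had 63.3%, 23 and 0.803. All 21045 windows of protein-coding genes had 56.7%, 13 and 0.574. The 341 windows at the other lower rows of the first list had 66.3%, 26 and 0.857, close to the members. A GC box was present in 79.3% of member windows, against 76.8% at the other lower rows, 70.5% at starts with a peak and 46.7% of all windows. CCAAT (or ATTGG) was present in 33.5% of member windows, against 36.9% at starts with a peak and 38.5% of all windows. The ETS core CCGGAAG (or CTTCCGG) was present in 17.2%, and TATAAA (or TTTATA) in 4.93%, against 18.7% and 5.73% at starts with a peak and 11.7% and 12.7% of all windows. The E-box CACGTG was present in 10.1% of member windows, against 10.5% at starts with a peak and 7.91% of all windows. At the other lower rows, CCAAT, the ETS core, TATAAA and the E-box were present in 34.9%, 18.2%, 5.28% and 7.62%. Both strands were searched, and a match is a string of letters, not a bound site.

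**Figure D1:**
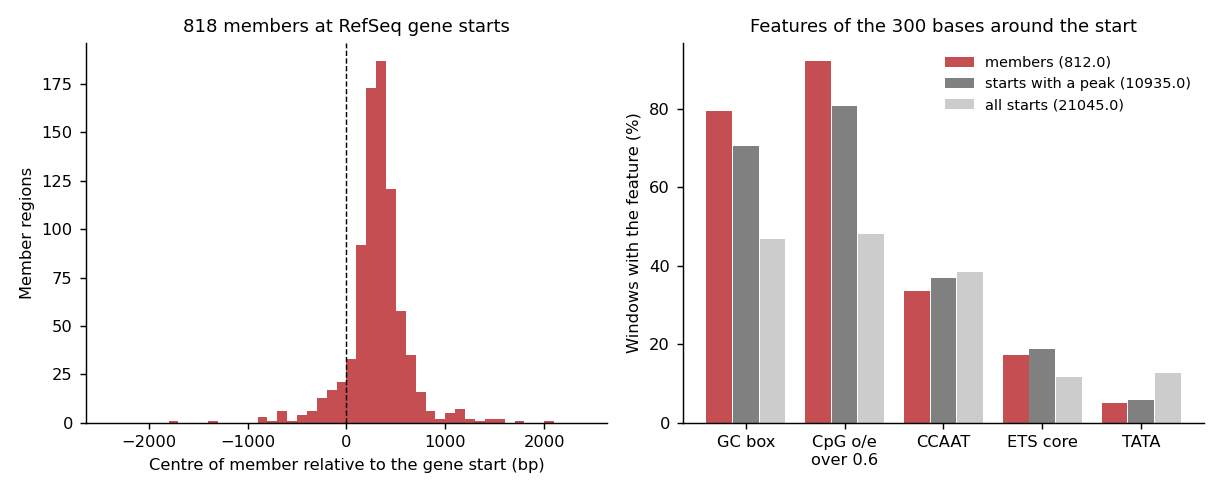
Left, distance in bp from the gene start to the centre of each of the 818 members at RefSeq starts (positive is downstream), as a histogram in 100 bp bins; most centres lie downstream, with a median of 318 bp. Right, percent of 300-base start windows with each sequence feature, for members, starts with a peak in all 4 long lists, and all protein-coding starts; 92.2%, 80.8% and 48.1% have a CpG observed to expected ratio over 0.6.

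The deposited score is a whole number, 1 for each of the 4 libraries of a group, and the files do not say which library holds which place in the row. The scale is the authors' own and is compared only within a list, because the same wild type vehicle libraries stand on a different scale in each. In vehicle heterozygotes the mean score of a member was a median of 0.601 of that in vehicle wild types, with a range of 0.246 to 0.826. In treated heterozygotes it was a median of 0.640 of the wild type vehicle mean, with a range of 0.345 to 0.821. A ratio under 0.5 was seen at 205 members (19.7%) with vehicle, at 78 (7.5%) with TAK-418, and at 33 in both. Single places moved these medians. On the log2(score + 1) scale the median was −0.64 for treated heterozygotes, but −1.48 without the third of their places, −0.39 without the second and −0.36 without the third wild type vehicle place. For vehicle heterozygotes it was −0.72, but −1.15 without the second of their places and −0.47 without the third wild type vehicle place. Both comparisons use the same wild type vehicle libraries, so the ratios of a member are not independent of each other.

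The spread between libraries was wide. Scores of vehicle heterozygotes all lay below those of vehicle wild types at 32 members (3.08%), where 2.03% of all rows of the list were so placed. In treated heterozygotes this held at 1 member (0.0962%), against 0.0735% of all rows of that list, and at no member did it hold for both lists. Members are all lower by the rule, whereas 86.0% of all rows of the first list and 72.4% of the treated list were lower. Nothing is therefore read from these differences in share. The single member of the treated list is at the start of Pias3, for a ligase of the SUMO modifier, and was singled out after its values were seen. It had 30, 13, 80 and 71 in treated heterozygotes, against 105, 156, 95 and 95 in vehicle wild types. Tested with limma over all rows, 0 of 2015 rows of the first list had an adjusted p below 0.05, and 82 (4.07%) had an unadjusted p below 0.05. In the treated list 8 of 2722 rows (0.294%) passed, and 174 (6.39%) had an unadjusted p below 0.05. All 8 are on the Y chromosome, have a score of 0 in at least 1 library, and are not members. An H3K4me3 peak on Y before 90 Mb was present in 3 of 4 treated heterozygote, 2 of 4 vehicle heterozygote and 1 of 4 vehicle wild type libraries. The part of sex in the 2 comparisons that chose the members was not tested.

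**Figure D2:**
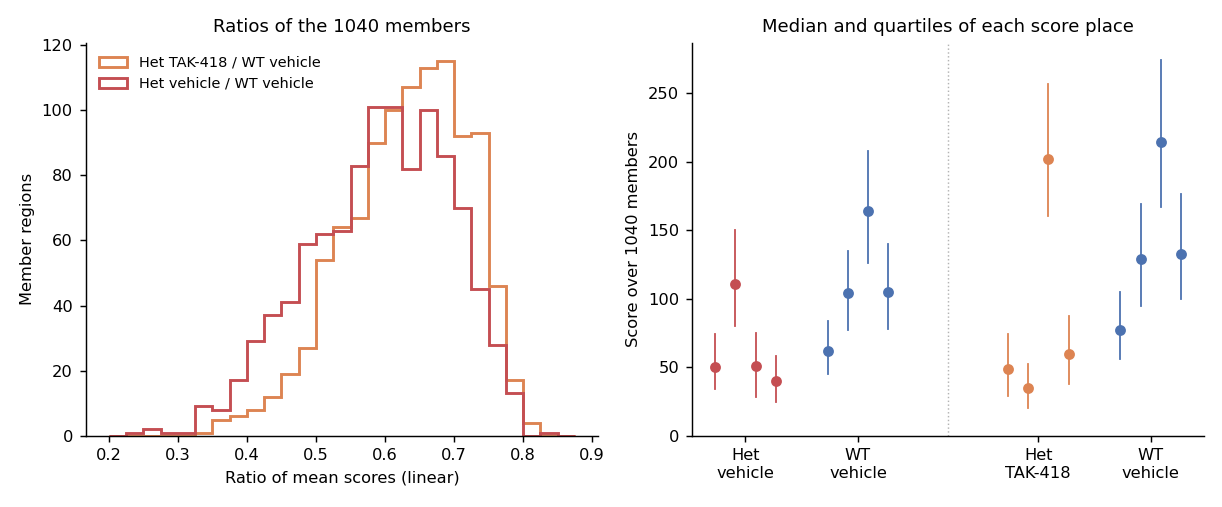
Left, ratio of mean scores (linear axis) of the 1040 members in treated and in vehicle heterozygotes over vehicle wild types; the medians are 0.640 and 0.601. Right, median (point) and quartiles (line) over the 1040 members of each of the 4 score places of a group, with the list of vehicle heterozygotes left and the list of treated heterozygotes right of the dotted line; 1 place stands above the others in each heterozygote group.

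One place of each group stood above the rest. Over the members, the median scores in the 4 places of vehicle heterozygotes were 50, 111, 51 and 40, against 62, 104, 164 and 105 in vehicle wild types. In the treated list they were 49, 35, 202 and 60 in treated heterozygotes, against 77, 129, 214 and 132.5 in vehicle wild types. The highest place of treated heterozygotes was the same one at 1024 members (98.5%), and that of vehicle heterozygotes at 899 (86.4%). In an alternative chosen after these values were seen, the place with the highest median was left out of each group. The median ratio was then 0.440 for treated and 0.537 for vehicle heterozygotes. In the 3 remaining places the heterozygote scores all lay below the wild type ones at 478 members (46.0%) in the treated list, against 32.8% of all its rows. In the vehicle list this held at 327 (31.4%), against 23.6%. Members are all lower by the rule, whereas 72.4% of all rows of the treated list and 86.0% of the vehicle list were lower. Nothing is therefore read from the higher shares of members. Between the left-out places alone the median ratio was 0.949 for treated and 0.689 for vehicle heterozygotes, and the treated place was the lower one at 598 members (57.5%).

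The peak lists of single libraries showed a similar split. An H3K4me3 peak overlapped 14, 6, 1031 and 20 members in the heterozygote TAK-418 libraries and 16, 1030, 12 and 11 in the heterozygote vehicle libraries. The wild type TAK-418 libraries had a peak at 36, 10, 1031 and 217 members and the wild type vehicle libraries at 45, 486, 1031 and 200. In each group the library at 1030 or 1031 is the single one whose barcode, judged by its index sequence, is of sets 1 and 2, and its list holds 13343 to 16750 peaks. The other 12 libraries have indexes of sets 3 and 4 and 302 to 2281 peaks. Within sets 3 and 4 the vehicle heterozygotes had 11 to 16 members with a peak, against 45 to 486 in vehicle wild types. Treated heterozygotes had 6 to 20, and treated wild types 10 to 217. At 9151 other gene starts with a peak in all 4 long lists, a peak was present within sets 3 and 4 in 0.120% to 1.08% for treated heterozygotes, 0.361% to 0.973% for vehicle heterozygotes, 0.372% to 10.6% for treated wild types and 1.07% to 16.8% for vehicle wild types. The members' shares were 0.577% to 1.92%, 1.06% to 1.54%, 0.962% to 20.9% and 4.33% to 46.7%, in the same order. Members were chosen for lower scores in both heterozygote groups than in vehicle wild types, from these same libraries. That choice favours fewer heterozygote and more wild type vehicle peaks at them, so these numbers are a description and nothing is read from the difference between members and other starts. The index sets are split evenly over the groups, but the files do not name the library of a score place. By median score at members, the highest place of each group has the position that its library of sets 1 and 2 has in the order of that group. The part of the index sets in the scores was not tested.

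**Figure D3:**
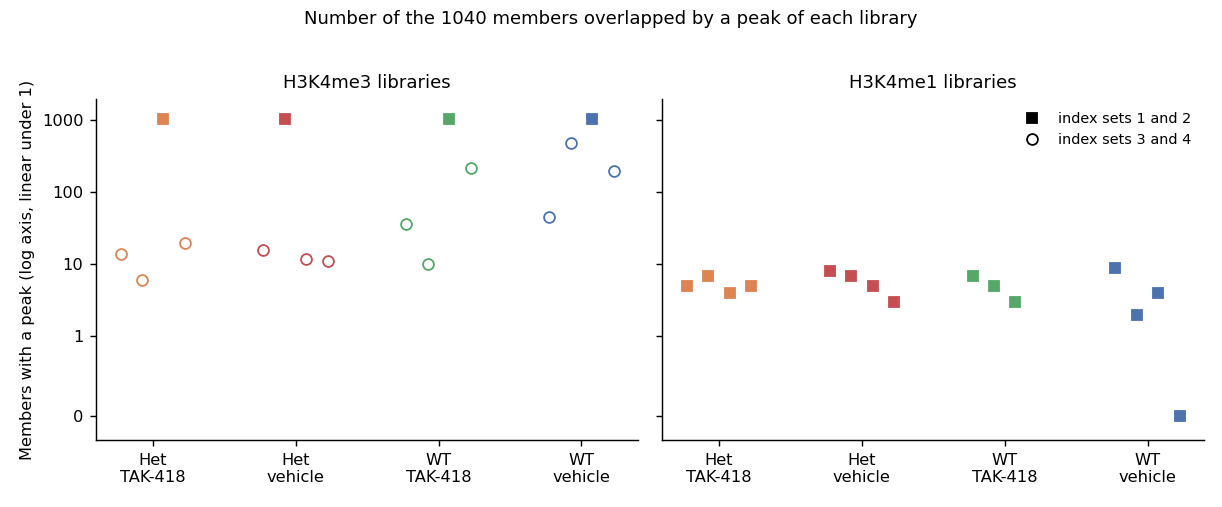
Number of the 1040 members overlapped by a peak in each library (log axis, linear under 1), by group and mark, with filled squares for index sets 1 and 2 and open circles for sets 3 and 4. The 4 H3K4me3 libraries of sets 1 and 2 have a peak at 1030 or 1031 members, and the 3 other vehicle heterozygote libraries at 11 to 16.

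In the long lists, peaks at members had a higher median fold enrichment than peaks at other gene starts. The deposited fold enrichment, a ratio over background set by the authors' peak caller, had a median at members at gene starts of 7.02 in the treated and 5.02 in the vehicle heterozygote library, and of 8.04 in the treated and 7.02 in the vehicle wild type library. At the other gene starts with a peak it was 6.02, 4.22, 6.10 and 5.34. Each value comes from 1 library, with no replicate check. The treated heterozygote, vehicle heterozygote and vehicle wild type libraries belong to the groups whose scores chose the members, so the order of these values between groups is partly set by that choice. The peaks at members were also wider, with medians of 1406, 1216, 1413 and 1183 bp, against 1053, 931, 1055 and 880 bp at the other starts. The same choice may favour strong and wide peaks, so nothing is read from the difference between members and other starts. The other lower rows were not compared in this way.

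Kmt2d itself, the gene disrupted in the heterozygotes, had a member at its start (chromosome 15, 98870951 to 98871650). Its scores were 97, 182, 15 and 62 in vehicle heterozygotes, against 55, 152, 175 and 176 in vehicle wild types. In treated heterozygotes they were 93, 59, 313 and 65, against 78, 217, 269 and 242 in vehicle wild types. The groups overlapped in both lists, and the highest score of the treated list was that of a heterozygote. Where the βGeo insertion lies relative to this region is not given in the sources used here, so the region does not check the genotype.

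Of 19 genes of the H3K4 methyltransferase complexes, 3 had a member: Kmt2d, Kmt2e and Dpy30. The background is 1077 of 21887 protein-coding genes (4.92%), or 9.47% of the 11345 with a peak in all 4 long lists. Dpy30, a subunit shared by all of these complexes, had 70, 209, 46 and 34 in vehicle heterozygotes, against 67, 111, 199 and 140 in vehicle wild types. With TAK-418 it had 38, 17, 193 and 7 in heterozygotes, against 55, 84, 183 and 134 in vehicle wild types. Kmt2e, which encodes an MLL family protein with little known methyltransferase activity, had 43, 113, 101 and 32 in vehicle heterozygotes, against 38, 153, 188 and 87 in vehicle wild types. In neither list were the groups apart at these genes.

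Of 18 genes of H3K4 demethylases and LSD1-CoREST, 3 had a member: Kdm1a, Rcor1 and Kdm5a. Kdm1a, the gene of the drug's target, had 83, 105, 306 and 73 in treated heterozygotes, against 68, 150, 354 and 254 in vehicle wild types. With vehicle the heterozygotes had 98, 108, 49 and 40, against 37, 73, 178 and 136 in wild types. Rcor1 had 40, 11, 380 and 121 in treated heterozygotes, against 98, 227, 411 and 271 in vehicle wild types. With vehicle it had 103, 236, 71 and 53 in heterozygotes, against 77, 178, 317 and 214 in wild types. The member at Kdm5a, for a demethylase of H3K4me3, lies nearest to the start of its neighbour Ccdc77 and had 40, 42, 299 and 38 in treated heterozygotes, against 91, 148, 367 and 152 in vehicle wild types. All 4 treated heterozygote scores of Kdm1a lay within the wild type range. At Rcor1 2 of the 4 did, and at Kdm5a 1 of the 4, with the others below every wild type score.

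**Figure D4:**
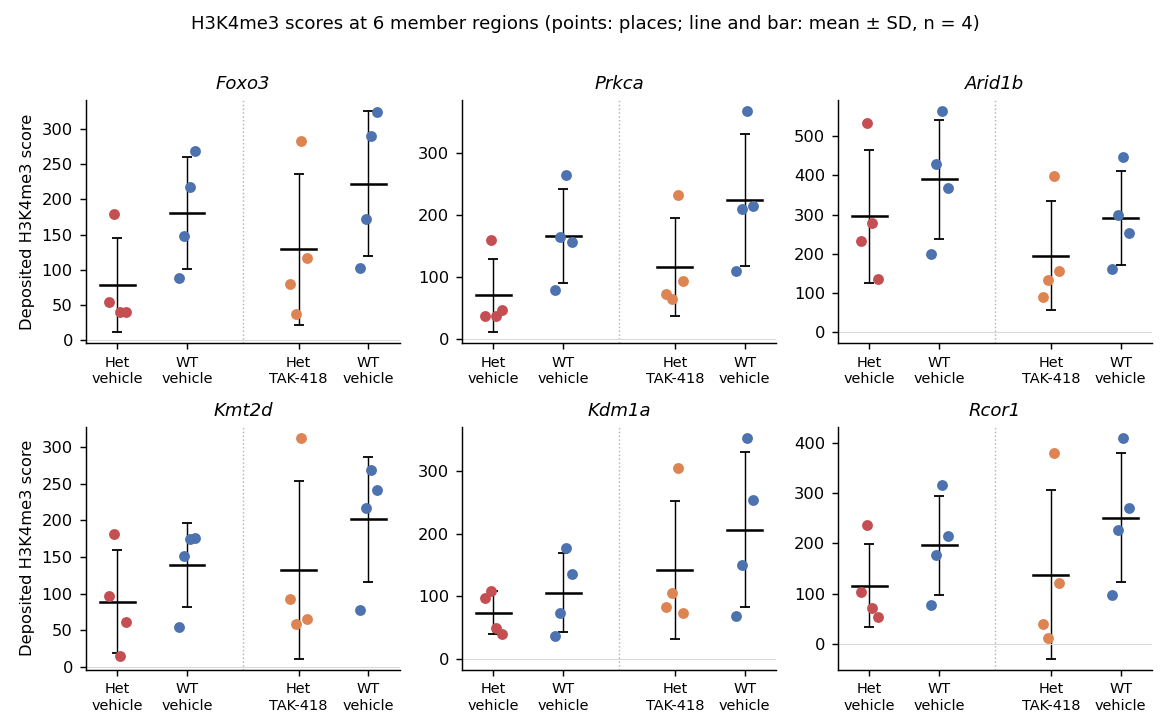
Deposited H3K4me3 scores (linear, the authors' scale) at 6 members, with a point per library place and the mean ± SD of 4; left of each dotted line vehicle heterozygotes and vehicle wild types, right of it treated heterozygotes and vehicle wild types from the second list. The heterozygote and wild type points overlap at each of the 6, and 1 heterozygote point often lies far above the other 3, as at Prkca.

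Other chromatin regulators linked to neurodevelopmental disorders had a member at 10 of 46 genes. These were Adnp, Arid1b, Asxl1, Brpf1, Chd3, Ehmt1, Ezh2, Setd2, Smarcc2 and Suz12, with ratios over wild type vehicle of 0.631 to 0.776 in treated and 0.538 to 0.785 in vehicle heterozygotes. Ezh2 and Suz12 encode core subunits of the Polycomb complex PRC2, Arid1b and Smarcc2 subunits of the BAF remodelling complex, and Setd2 the methyltransferase of H3K36. Chd3, for a remodeller of the NuRD complex, had the lowest vehicle ratio of these, with 49, 174, 45 and 106 in vehicle heterozygotes, against 79, 145, 321 and 150 in vehicle wild types. With TAK-418 its scores were 97, 37, 351 and 142 in heterozygotes, against 96, 173, 401 and 182 in vehicle wild types. The groups overlapped in both lists. Without the third wild type vehicle place the direction turned at Chd3 in treated heterozygotes, to a log2 ratio of 0.060, and at Adnp in vehicle heterozygotes, to 0.24. Arid1b had the highest wild type vehicle mean of any member outside recurrent regions, with 233, 533, 279 and 135 in vehicle heterozygotes, against 199, 429, 563 and 367 in vehicle wild types. With TAK-418 it had 91, 134, 399 and 156 in heterozygotes, against 160, 300, 447 and 254 in vehicle wild types, and 3 of the 4 heterozygote scores lay below every wild type score. Next to it by that measure came Cdk13, for a kinase of RNA polymerase II, with 249, 432, 76 and 204 in vehicle heterozygotes, against 167, 297, 597 and 493 in vehicle wild types.

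The member with the highest −log10 p in the first list, 11.6 in the authors' deposited table, was at Ddx3x, an RNA helicase gene on X (chromosome X, 13281151 to 13281800). It had 73, 60, 8 and 6 in vehicle heterozygotes, against 36, 49, 306 and 143 in vehicle wild types. In treated heterozygotes it had 20, 34, 128 and 134, against 55, 66, 435 and 189 in vehicle wild types. In each list 2 of the wild type scores were far above the other 2. Ddx3x escapes X inactivation, and an H3K4me3 peak on the Y chromosome before 90 Mb was present in 3 of 4 treated and 2 of 4 vehicle heterozygote libraries, and in 2 of 4 treated and 1 of 4 vehicle wild type libraries. The part of sex in the Ddx3x scores was not tested.

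Among members at gene starts in the promoter table, next in that ranking were Tnrc18, whose protein reads methylated H3K9, and Foxo3, a forkhead transcription factor gene. Tnrc18 (chromosome 5, 142816901 to 142817450) had 15, 100, 78 and 1 in vehicle heterozygotes, against 89, 135, 167 and 159 in vehicle wild types. In treated heterozygotes it had 44, 15, 304 and 62, against 117, 167, 218 and 209 in vehicle wild types. At this gene a single heterozygote score lay within the wild type range or above it in each list. Foxo3 (chromosome 10, 42275051 to 42275950) had 55, 179, 41 and 40 in vehicle heterozygotes, against 88, 148, 218 and 269 in vehicle wild types, and 80, 38, 283 and 117 in treated heterozygotes, against 103, 173, 290 and 324 in vehicle wild types. Tpm3, for a tropomyosin of the actin cytoskeleton, had 42, 122, 69 and 51 in vehicle heterozygotes, against 50, 180, 288 and 159 in vehicle wild types, so that 3 of 4 heterozygote scores lay within the wild type range. The uncharacterised gene 2310022B05Rik had the lowest ratio in the treated list, 0.345, with 14, 3, 161 and 30 in treated heterozygotes, against 70, 152, 249 and 132 in vehicle wild types. Hbs1l, for a factor that rescues stalled ribosomes, had 7, 108, 15 and 15 in vehicle heterozygotes, against 94, 119, 168 and 60 in vehicle wild types. Pip4p2, for a phosphatase of phosphoinositides, had 51, 52, 15 and 19 in vehicle heterozygotes, against 87, 96, 117 and 104 in vehicle wild types, without overlap. It had 33, 91, 206 and 31 in treated heterozygotes, against 102, 114, 145 and 127 in vehicle wild types, and there the groups overlapped.

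Signalling kinases and phosphatases had a member at 8 of 44 genes. They include the catalytic subunits of protein kinase A (Prkaca and Prkacb), 2 forms of protein kinase C (Prkca and Prkcb), calcineurin (Ppp3ca), casein kinase 1 (Csnk1a1) and the JNK pathway (Map2k4 and Mapk9). Their ratios were 0.430 to 0.762 in treated and 0.422 to 0.618 in vehicle heterozygotes. Map2k4, a kinase that activates JNK, had 47, 23, 231 and 54 in treated heterozygotes, against 146, 240, 310 and 130 in vehicle wild types. With vehicle it had 49, 168, 70 and 27 in heterozygotes, against 123, 200, 247 and 106 in wild types. Prkca had 72, 65, 233 and 93 in treated heterozygotes, against 109, 210, 368 and 214 in vehicle wild types, and 37, 159, 37 and 47 in vehicle heterozygotes, against 79, 164, 265 and 156 in vehicle wild types. In each of these rows 3 of the 4 heterozygote scores lay below every wild type score.

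Genes of clathrin, vesicles and trafficking had a member at 8 of 42, with ratios of 0.522 to 0.736 in treated and 0.442 to 0.674 in vehicle heterozygotes. Clint1, an adaptor of clathrin at the Golgi, had 72, 113, 38 and 97 in vehicle heterozygotes, against 169, 160, 226 and 162 in vehicle wild types, without overlap. In treated heterozygotes it had 82, 58, 317 and 88, against 191, 184, 274 and 184 in vehicle wild types, and there the highest score was a heterozygote. The others were Cltb and Picalm of the clathrin coat, Rab1a and Sec24a of transport from the endoplasmic reticulum, Stx12 and Vamp3 of membrane fusion, and Vps4b of the ESCRT machinery. Splicing factors and RNA helicases had a member at 6 of 36 genes, ubiquitin and proteasome genes at 6 of 40, translation factors at 6 of 34 and ribosomal proteins at 5 of 35. Eif4e2, for a cap-binding repressor of translation, had 50, 90, 89 and 38 in vehicle heterozygotes, against 98, 151, 171 and 91 in vehicle wild types, without overlap. The ribosomal protein gene Rpl19 had 61, 70, 36 and 28 in vehicle heterozygotes, against 63, 81, 103 and 77 in vehicle wild types. All gene lists were chosen with earlier results of these data known, so their shares are no separate evidence. The lists of FOXO and BET genes (2 of 7, Foxo3 and Brd3), kinases, trafficking and splicing were drawn up with some of their lower regions already known.

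The immediate early genes had a member at 2 of 21 (Jun and Jund), the circadian clock at 1 of 18 (Rora) and the mitochondrial respiratory chain at 1 of 22 (Cox7c). Markers of cell types had none. In 9 lists, for neural progenitors, excitatory and inhibitory neurons, astrocytes, the oligodendrocyte lineage, microglia, vascular cells, choroid plexus and blood cells, 0 of 144 genes had a member, and 61 of them had a peak in all 4 long lists. For the tissue label, 21 of 29 excitatory neuron and synapse genes had a peak in all 4 long lists, as against 1 of 14 microglia genes, 0 of 11 blood genes and 0 of 22 Hox genes. In whole tissue, fewer cells of a type and less of the mark per cell cannot be told apart.

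**Figure D5:**
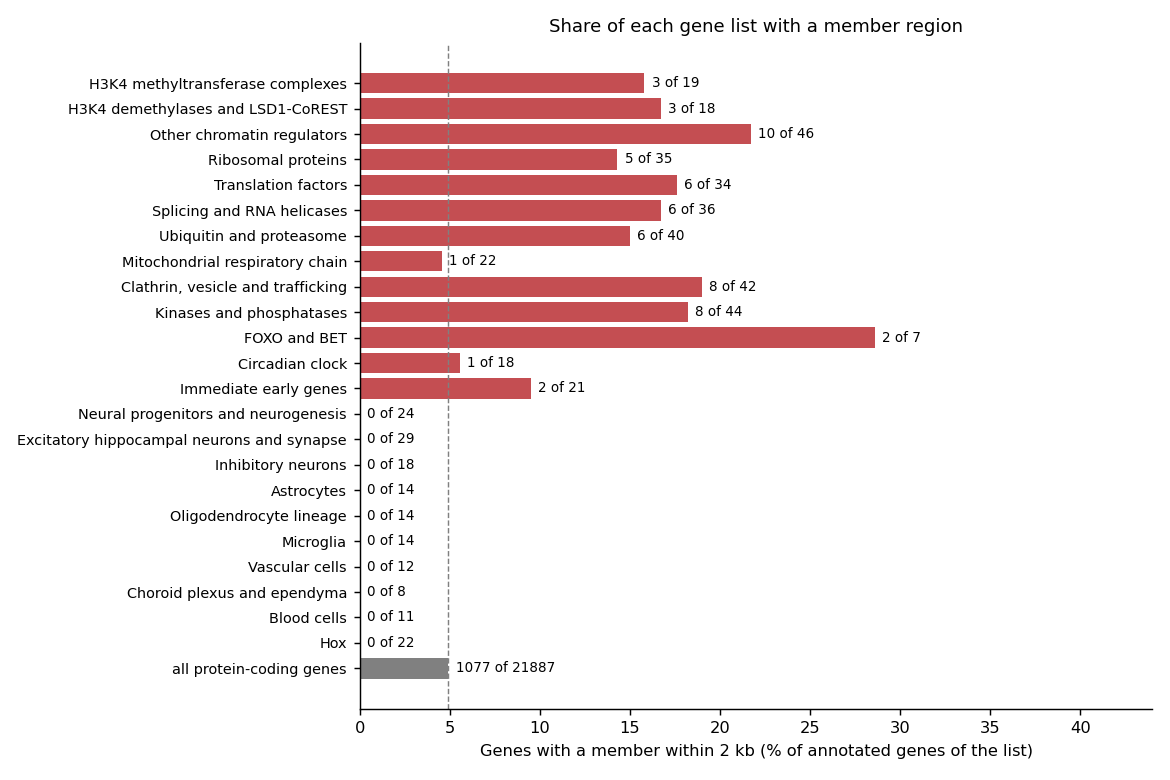
Percent of the annotated genes of each list with a member within 2 kb, with counts at the bars; the grey bar and dashed line give all protein-coding genes (4.92%). Among genes with a peak in all 4 long lists the share is 9.47%, with another denominator than the bars. Chromatin, signalling, trafficking and RNA lists lie above both values. Immediate early genes (9.52%), the clock (5.56%) and the respiratory chain (4.55%) lie near one of them. The 9 cell type lists and Hox, where fewer genes have such a peak, stand at 0. The lists were chosen with earlier results of these data known, so nothing is read from these shares.

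The treated wild type libraries were not used in choosing the members. Their list, TAK-418 against vehicle in wild types, has 540 rows at members, of which 469 were lower with TAK-418 and 71 higher, and 36.4% of all its rows were lower. It shares the wild type vehicle libraries with both comparisons that chose the members, so members that are high in these libraries are favoured in it, and nothing is read from the number. The median scores over these rows were 55, 50, 205 and 75 in wild type TAK-418, against 72.5, 124, 205 and 138.5 in wild type vehicle. The highest place was thus level, with a median ratio of 0.983, and the mean of the other 3 had a median ratio of 0.533. In limma 0 of 2780 rows of the list had an adjusted p below 0.05, and 66 (2.37%) had an unadjusted p below 0.05. Of the 540 rows at members, 20 had an unadjusted p under 0.05, and their smallest adjusted p was 0.779.

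The groups did not overlap at 1 of these 540 rows, and there TAK-418 was the lower group. Of all rows of the list, 0.144% had no overlap with TAK-418 the lower group. It is at Mfap3l, for a membrane protein related to a microfibril component, with 13, 21, 54 and 1 in wild type TAK-418, against 67, 88, 70 and 118 in wild type vehicle (chromosome 8, 60632351 to 60632750; limma log2 difference −2.64, adjusted p = 0.779). There vehicle heterozygotes had 32, 20, 35 and 19, against 52, 66, 45 and 90 in vehicle wild types, without overlap, and treated heterozygotes had 21, 13, 78 and 7, against 64, 80, 58 and 109 in vehicle wild types. Elovl4, for an enzyme that lengthens fatty acids, had 37, 50, 184 and 65 in wild type TAK-418, against 113, 211, 182 and 248 in wild type vehicle (adjusted p = 0.779). With vehicle alone it had 56, 70, 54 and 21 in heterozygotes, against 74, 152, 115 and 165 in wild types, without overlap. The groups overlapped at every member row listed as higher in treated wild types. Atp2a2, for the calcium pump of the endoplasmic reticulum, had 194, 186, 434 and 197 in wild type TAK-418, against 86, 123, 291 and 135 in wild type vehicle (adjusted p = 0.779). At Kmt2d a row over the first part of the member had 16, 45, 124 and 56 in wild type TAK-418, against 14, 119, 162 and 157 in wild type vehicle. The row next to it had 222, 132, 576 and 216 in wild type TAK-418, against 181, 188, 305 and 148 in wild type vehicle.

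H3K4me1 peaks were rarely recorded at these regions, in peak lists that are short everywhere. In the 15 H3K4me1 libraries a peak overlapped 0 to 9 members, with a median of 5, and 0 or 1 member outside recurrent regions. The lists hold 88 to 456 peaks each. A peak was present at 0.0437% to 0.186% of the 9151 other gene starts, and at up to 0.865% of members, recurrent regions included. A missing peak is therefore not read as absence of the mark. In the 4 lists of differential regions taken as H3K4me1, 10 members had a row. There were 7 for treated heterozygotes and 5 for vehicle heterozygotes against vehicle wild types, 3 for treated against vehicle heterozygotes and 6 for treated against vehicle wild types. Of the 569 lower rows with no lower row in the treated H3K4me3 list, 30.1%, 35.1%, 21.6% and 20% had a row in these lists, against 0.673%, 0.481%, 0.288% and 0.577% of the members. The kept-out rows lay between these or near the members. For the 76 higher with TAK-418 the shares were 10.5%, 9.21%, 10.5% and 7.89%. For the 42 lower ones they were 2.38%, 2.38%, 2.38% and 0%. The 569 rows also differ in kind, with 14.6% recurrent and 46.0% away from gene starts and limits, against 1.06% and 5.38% of members. Of the 10 members, 6 were recurrent regions and 2 were at a gene start in the promoter table. At 7 of the 10 the third place, the highest of wild type vehicle at 803 of all 1040 members, was the lowest of the 4. That was so at 15 of all 1040.

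One of the 10 lies inside Ptprj, for a receptor tyrosine phosphatase (chromosome 2, 90571751 to 90572150), more than 2 kb from a gene start. Its H3K4me3 scores were 251, 40, 83 and 54 in vehicle heterozygotes, against 300, 217, 41 and 126 in vehicle wild types. Its H3K4me1 scores were 385, 7, 64 and 268 in vehicle heterozygotes, against 412, 367, 124 and 216 in vehicle wild types (limma adjusted p = 0.412), and 54, 436, 165 and 227 in treated heterozygotes, against 350, 6, 56 and 240 in vehicle heterozygotes (adjusted p = 0.486). Another lies at an outer limit of Stag2, a cohesin subunit gene on X with no start in the promoter table. Whether this limit is the start or the far end of the gene was not looked up. Its H3K4me1 scores were 192, 228, 69 and 84 in treated heterozygotes, against 283, 204, 210 and 138 in vehicle wild types (adjusted p = 0.389). None of the 21 rows of these lists at members passed an adjusted p of 0.05 in limma. The smallest was 0.292, 3 had an unadjusted p under 0.05, and 0 rows passed in each of the 4 lists as a whole, where 15.5%, 5.25%, 8.62% and 9.67% of rows had an unadjusted p under 0.05 in the order of the counts of members above.

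The members with the smallest difference of mean scores, just inside the rule, were regions of low score, and their ratios were not far from the median member. Hpf1, for a factor of ADP-ribosylation, had 5, 61, 57 and 15 in vehicle heterozygotes, against 36, 47, 94 and 44 in vehicle wild types, a ratio of 0.624 with a −log10 p of 1.51. Vps33a, of the lysosomal tethering complex, had 40, 56, 55 and 7 in vehicle heterozygotes, against 54, 58, 72 and 52 in vehicle wild types, a ratio of 0.669 with a −log10 p of 1.36, where the lowest of any member was 1.3. Just outside were the lower rows that meet the other conditions but overlap a row of treated against vehicle heterozygotes, 76 of them higher with TAK-418 and 42 lower. Kdm5b, for another demethylase of H3K4me3, was among the 76, with means of 130.25 in treated and 85.25 in vehicle heterozygotes in that list. Its scores there, 119, 36, 262 and 104 in treated heterozygotes and 16, 185, 78 and 62 in vehicle heterozygotes, overlap widely. Only 1 row that is higher in heterozygotes meets the other conditions, a recurrent region inside Zfp600.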

How the data were processed

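H3K4me3 and H3K4me1 ChIP-seq of mouse hippocampus was analysed in 31 libraries. Per the submitters' processing notes, mm10, MACS2, MACS and bedtools were used, with no version or role; the aligner, the control library and the tool of the differential lists are not given in the sources used here. Per the labels, replicates are separate mice. The authors deposited a broad peak list per library, with a fold enrichment (a ratio) and −log10 p and q per peak, and 8 lists of differential regions, with a −log10 p of at least 1.3 and a whole-number score per library. Whether these scores are normalized is not given, and the lists hold no library names and no depth, so score places were treated as unordered and precision per region is unknown. The mark of 4 lists that name none was taken as H3K4me1.

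The members and gene lists were chosen with earlier results of these data known. A gene withheld here was left out of the gene lists and is not reported here. Lists were overlapped by at least 1 bp. Ratios are of mean scores, and log2 ratios and limma (Benjamini-Hochberg over all rows of a list) used log2(score + 1). The limma code was tested on simulated data with less spread than these libraries, which says nothing of its power here. Genes were named by rank of −log10 p, ratio or score, by the gene lists, and by rows in the wild type TAK-418 and H3K4me1 lists. Genes and windows came from RefSeq, with 17492 of 21887 protein-coding genes given a start; no chromosome 18 start was in that table. Python 3.11.15, pandas 2.3.3, numpy 2.4.6, matplotlib 3.10.9, R 4.3.3 and limma 3.58.1 were used. Alternatives changed the overlap, direction rule, −log10 p, pseudocount, distance and score places.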

Additional observations from a re-analysis of the deposited data

Results flagged for a closer look

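Single high values stood far from the other 3 of their group in several places, by Dixon's criterion for 4 values, which chance meets in about 1 in 20 groups. The heterozygote TAK-418 and heterozygote vehicle H3K4me3 libraries of index sets 1 and 2 had a peak at 1031 and 1030 members, far above the other libraries of their groups. Over all members, 1 place of treated heterozygotes had a median score of 202 and 1 place of vehicle heterozygotes had 111.

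Of 88 groups of scores at the 22 members screened, 17 had such a value, in every case the highest score. In treated heterozygotes there were 12, namely Tnrc18 (304), Tpm3 (252), Prkca (233), 2310022B05Rik (161), Eif4e2 (248), Kdm1a (306), the Kdm5a and Ccdc77 region (299), Clint1 (317), Map2k4 (231), Rpl19 (195), Kmt2d (313) and Dpy30 (193). In vehicle heterozygotes there were 3, at Foxo3 (179), Prkca (159) and Hbs1l (108). In vehicle wild types only Clint1 had one, at 226 in the first list and 274 in the treated list. The members share libraries, so these are not separate events. Over all members, the high place has the position that the library of index sets 1 and 2 has in the order of its group. Whether it is that library was not tested, since the scores do not name their library.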

How the results depend on the processing

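The 1040 members became 610 when rows of both lists that chose them had to reach a −log10 p of 2. With 1 score place left out at a time they numbered 957 to 1040, the lowest without the third wild type vehicle place. Only the direction of the means was recomputed there, and the authors' rows and p stayed those of all libraries. These counts therefore do not show that the set is independent of single libraries. The median log2 ratio over members was −0.64 for treated heterozygotes and ranged from −1.48 to −0.36 without 1 place, and was −0.72 for vehicle heterozygotes with a range of −1.15 to −0.47. Members at gene starts numbered 810 to 820 with distances of 1 or 5 kb. The 8 limma calls in the treated list, all on Y, fell to 0 with a pseudocount of 10 and to 0 without the highest place of each group, and were 0 to 11 without 1 place, with 0 without the first treated heterozygote place, the third wild type vehicle place or the fourth wild type vehicle place. Calls in the wild type TAK-418 list were 0 to 3 for H3K4me3 and 0 to 1 for H3K4me1 without 1 place, and 1 for H3K4me1 with a pseudocount of 10. The 70 members with a higher row in the wild type TAK-418 list became 41 with an overlap of at least 50% of the shorter row.

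With 1 place left out, the log2 ratio of treated heterozygotes ran from −1.27 to 0.036 at Eif5b, −2.22 to 0.19 at Srsf6, −1.49 to 0.18 at Eif4g2, −1.20 to 0.060 at Chd3, −0.81 to 0.087 at Fbxl20 and −0.68 to 0.069 at Ptprj. That of vehicle heterozygotes ran from −0.82 to 0.38 at Srsf6, −0.57 to 0.24 at Adnp and −0.65 to 0.09 at A530032D15Rik. The positive end came without the third wild type vehicle place, or, at Ptprj, without the first, and, at A530032D15Rik, without the second heterozygote place. The cause was not tested. Over all members, the third wild type vehicle place decided the direction at 71 in the treated and 31 in the vehicle list. Members with a peak moved by over 1.5 times in 10 of 31 libraries when 50% of the member had to be covered. No paired analysis was possible because the labels number no replicates within groups and the scores name no library. The scores carry no depth, so the counting error of a single score is unknown.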
